A study of Mus musculus with 15 samples.

Results

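The Cyp4 genes encode cytochrome P450 enzymes, most of which add a hydroxyl group to the last carbon of a fatty acid chain (omega-hydroxylation), and 7 of them, Cyp4a10, Cyp4a14, Cyp4b1, Cyp4f13, Cyp4f14, Cyp4f15 and Cyp4v3, were described in mouse liver. The genes were chosen by family, with results of these arrays already known and because the signal of Cyp4a14 was much lower in diabetic KKAy mice than in C57BL/6J mice. Every probe set of the array that the platform annotation assigns to 1 of these symbols alone was taken. That gave 7 probe sets for 6 of the 7 genes, of 18193 genes measured. Cyp4a10 had no probe set of its own, because its probe set is annotated to Cyp4a10 and Cyp4a31 together, so no value is given for it.

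Omega-hydroxylation is the minor route of fatty acid breakdown beside beta-oxidation, and it is known to contribute more when the liver is flooded with fatty acids. The hydroxylated chain is oxidised further by alcohol and aldehyde dehydrogenases to a dicarboxylic acid, which is shortened in peroxisomes. Genes of the Cyp4a subfamily are classical targets of PPARA, the nuclear receptor that fatty acids and fibrate drugs activate. The Cyp4f enzymes are better known for inactivating leukotriene B4 and other eicosanoids, and Cyp4v3 is the mouse counterpart of the human gene mutated in Bietti crystalline dystrophy, a lipid disease of the retina.

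Liver RNA of 15 male mice, 5 in each of 3 groups, was hybridised to Affymetrix mouse 430 2.0 arrays, with 1 mouse on each array. The C57BL/6J group (Normal) ate chow and received distilled water. The KKAy model group (Model) ate a high-fat diet and received distilled water by gavage once daily for 32 days. The XKA group was KKAy mice on the same diet that received 1.5 g/kg XKA (Xiao-Ke-An, a Chinese medicine made from several herbs) in the same way and for the same time. The mice were 10 weeks old at the start. KKAy mice carry the lethal yellow allele of agouti, which makes them obese and diabetic. Strain, diet and supplier differed together between KKAy and C57BL/6J mice and cannot be told apart. Mice were killed fed according to 1 passage of the methods, while another calls the last blood sample fasting, so whether these livers were fed is not settled, and many PPARA targets respond to fasting.

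All values below are the scaled signal, that is the deposited intensity of a probe set after each array was brought to a median of 1000, and changes are differences of the mean log2 scaled signal. The signal of 1 probe set cannot be set against that of another, so genes are compared by their changes only. The number of arrays, 5 in each group, limits the precision, and in whole liver a smaller share of hepatocytes and less RNA per hepatocyte cannot be told apart. The 9 measured hepatocyte markers summed to similar signals in all groups (2800290 to 4569430 in Normal, 3207110 to 4892320 in Model and 3248480 to 4307620 in XKA), with each marker above the array median. Kidney and lung also use Cyp4 genes. Of 6 kidney markers, 3 had a mean over all arrays above the array median, and Umod, Slc12a1 and Cubn were below it in every group. The summed signal of the 6 was 2994 to 6497 over the 15 arrays. Of 5 lung markers, 0 had a mean over all arrays above the array median, and Sftpa1, Scgb1a1 and Scgb3a2 were below it in every group. Whether RNA of other tissues was present was not tested.

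Cyp4a14 was the member with the widest change, as its selection required. In C57BL/6J livers its scaled signal was 525887, 437299, 352209, 422491 and 332891 in replicates 1 to 5. In the KKAy model group it was 16671, 12421, 3839, 4380 and 4177, and in the XKA group 1685, 23069, 76859, 18013 and 10462. The highest of the 10 KKAy arrays, XKA replicate 3, was still far below the lowest C57BL/6J array, while the XKA and model arrays overlapped. The mean of the model group was 0.02003 times the C57BL/6J mean (8298 ± 5902 against 414155 ± 76698, SD, n = 5), a log2 change of -5.91 (SE 0.66). The mean of the XKA group was 0.0628 times the C57BL/6J mean (26018 ± 29545), a log2 change of -4.85 (SE 0.66). These differences from C57BL/6J mice are what the gene was chosen for and are given without a test.

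The spread of Cyp4a14 between mice also differed. The highest array was 1.58 times the lowest in the C57BL/6J group, 4.34 times in the model group and 45.6 times in the XKA group, and the SD of the log2 signal was 0.264, 1.001 and 2.01 in the same order. XKA replicate 1 was the lowest of all 15 arrays, and XKA replicate 3 was the highest KKAy array.

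**Figure D1:**
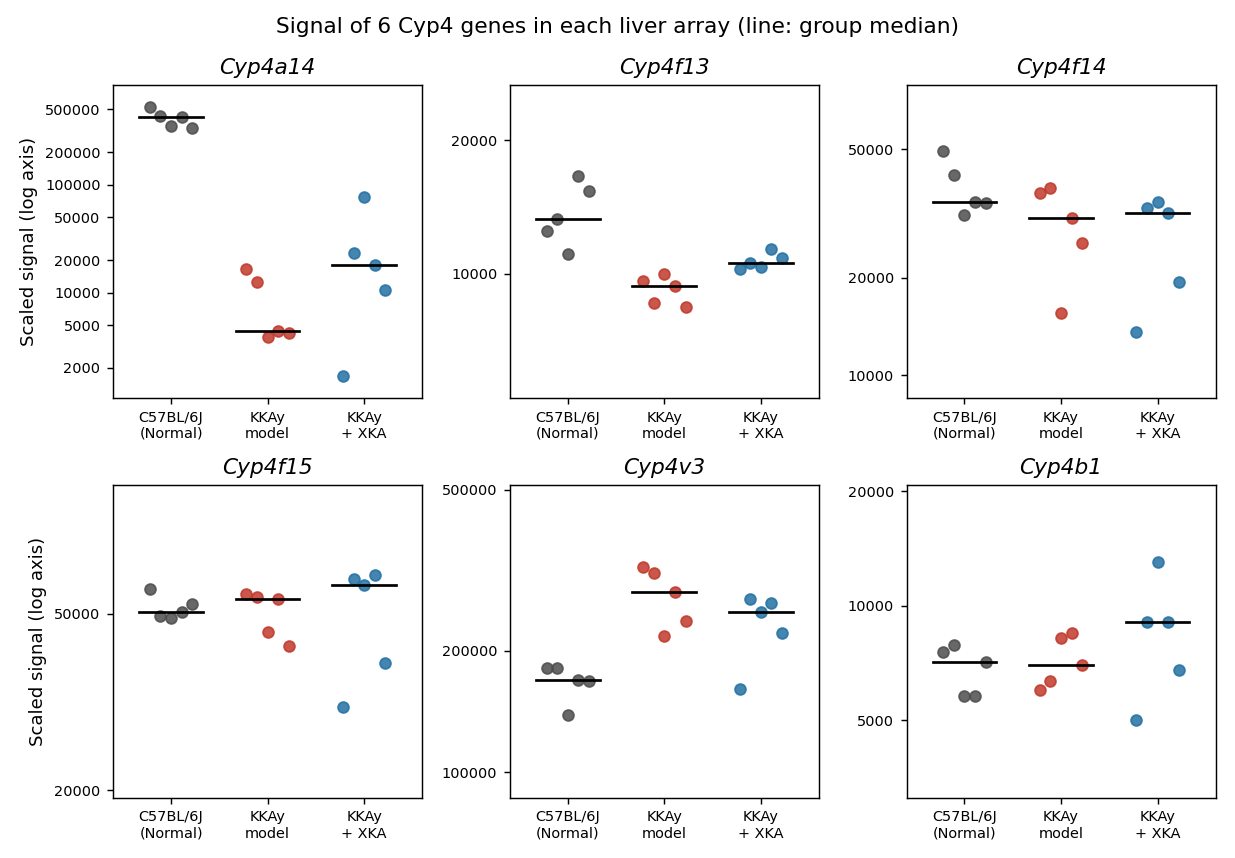
Scaled signal (log axis) of the 6 measured Cyp4 genes in each of 15 liver arrays, grouped as C57BL/6J, KKAy model and KKAy with XKA. Points are single mice in replicate order from left to right, and lines are group medians. Cyp4a14 separated all KKAy arrays from all C57BL/6J arrays, Cyp4f13 was lower and Cyp4v3 higher in the model group, and Cyp4f15 and Cyp4b1 overlapped in all groups.

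The question put to the treatment was whether XKA moved these genes within KKAy mice. The genes were not chosen for this difference, but it uses the KKAy arrays whose low Cyp4a14 signal entered the choice. No member passed, 0 of 6, at a limma p below 0.05 after Benjamini-Hochberg adjustment over all 18193 genes, against a background of 0.176% of all genes (32 genes, and 1561 at an unadjusted p under 0.05). The median log2 change of the 6 members was 0.06, beside -0.06 over all genes, and 3 members had a positive and 3 a negative change. For Cyp4a14 the log2 change was 1.06 (SE 0.66, 95% interval -0.32 to 2.43, limma adjusted p = 0.70), which leaves room for both a rise of several fold and a fall. The fit pools the spread of all 3 groups, and the SD of the log2 signal was 0.264 in C57BL/6J, 1.001 in model and 2.01 in XKA mice. The interval is therefore narrower than the spread of the model and XKA groups alone would give. The exact two-sided permutation test of the 5 XKA against the 5 model arrays gave p = 0.325. XKA replicate 1 and XKA replicate 3 moved the estimate most: it was 1.82 (limma adjusted p = 0.129) without replicate 1 and 0.44 (adjusted p = 0.88) without replicate 3.

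Cyp4f13, one of the eicosanoid-hydroxylating subfamily, had the narrowest spread of the 6 members in both KKAy groups (SD of the log2 signal 0.106 in model and 0.0607 in XKA mice), though not in C57BL/6J mice (0.235). Its scaled signal was 12470, 13286, 11106, 16665 and 15402 in C57BL/6J livers. In the model group it was 9626, 8614, 9980, 9404 and 8405, and in the XKA group 10255, 10588, 10382, 11404 and 10846. Every XKA array was above every model array, and every model array was below every C57BL/6J array. The XKA minus model difference was small, 0.22 on the log2 scale (SE 0.12, 95% interval -0.03 to 0.47), with exact permutation p = 0.00794, the smallest that 5 against 5 arrays can give, and it did not pass the test across all genes (limma adjusted p = 0.65). The SE and interval come from a fit that pools the spread of all 3 groups, of which the C57BL/6J group was the widest. The permutation test used the XKA and model arrays only. Groups that did not overlap were found in 1 of the 6 members here and in 1.45% of all genes. The XKA minus model difference was between 0.19 and 0.26 in every alternative run, at an adjusted p between 0.426 and 1 in the runs that adjusted over genes. The Dunnett run that was not adjusted over genes is left out of this range of p.

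Against C57BL/6J mice Cyp4f13 stood at -0.57 (SE 0.12) in the model group, given without a test. In the XKA group it stood at -0.35 (SE 0.12, limma adjusted p = 0.084). This missed the threshold, and it passed with the values as deposited (-0.51, adjusted p = 0.0061), after quantile normalization (-0.49, adjusted p = 0.0153), with array weights (-0.37, adjusted p = 0.0488) and without C57BL/6J replicate 3 (-0.43, adjusted p = 0.0415).

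Cyp4f14, the enzyme best known in mouse for hydroxylating leukotriene B4, varied more. Its scaled signal was 49445, 41559, 31273, 34439 and 34223 in C57BL/6J livers. In the model group it was 36678, 37970, 15624, 30696 and 25604, and in the XKA group 13590, 32994, 34226, 31678 and 19359. The groups overlapped, and the lowest values came from model replicate 3 and XKA replicate 1. The log2 change was -0.17 between XKA and model mice (SE 0.25, 95% interval -0.70 to 0.36, limma adjusted p = 0.90), and it turned to 0.045 (adjusted p = 0.97) without XKA replicate 1. Against C57BL/6J mice it was -0.43 (SE 0.25) in the model group and -0.60 (SE 0.25, limma adjusted p = 0.184) in the XKA group. The latter passed only after quantile normalization (-0.75, adjusted p = 0.0443).

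Cyp4f15, its neighbour in the same subfamily, had overlapping groups. Its scaled signal was 49015 to 56809 (median 50542) in C57BL/6J, 42357 to 55411 (median 53931) in model and 30811 to 61030 (median 58023) in XKA livers. The log2 changes were -0.06 between XKA and model mice (95% interval -0.41 to 0.28, limma adjusted p = 0.95), -0.05 between model and C57BL/6J mice and -0.11 between XKA and C57BL/6J mice (95% interval -0.45 to 0.24, adjusted p = 0.80). These differences were smaller than the spread between mice, and their sign turned in several alternatives. Cyp4b1, a member better known for activating xenobiotics in lung, was similar, at 5809 to 7893 in C57BL/6J, 5998 to 8481 in model and 5013 to 13000 in XKA livers. Its log2 change was 0.19 between XKA and model mice (95% interval -0.23 to 0.61, limma adjusted p = 0.85), 0.27 between XKA and C57BL/6J mice (95% interval -0.15 to 0.69, adjusted p = 0.53), and 0.08 between model and C57BL/6J mice, a value that turned to -0.12 with the values as deposited and to -0.063 after quantile normalization.

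Cyp4v3 was the member with a higher signal in KKAy livers, on both of its probe sets. On the probe set that represents the gene the scaled signal was 181710, 181124, 138482, 169742 and 168067 in C57BL/6J mice. It was 321769, 311616, 216882, 280180 and 237009 in model mice and 160918, 268898, 249326, 262864 and 221554 in XKA mice. All 5 model arrays and 4 of the 5 XKA arrays were above every C57BL/6J array, and XKA replicate 1 fell inside the C57BL/6J range. The second probe set ran at 66077 to 80635 in C57BL/6J, 82667 to 131230 in model and 71406 to 114490 in XKA mice, with the same arrays lowest in the KKAy groups.

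The model mean of Cyp4v3 was 1.63 times the C57BL/6J mean (273491 ± 45729 against 167825 ± 17567, SD, n = 5), a log2 change of 0.69 (SE 0.16), and 0.62 (SE 0.15) on the second probe set, both given without a test. Between XKA and C57BL/6J mice the log2 change was 0.45 (SE 0.16, 95% interval 0.12 to 0.79) with a limma adjusted p of 0.105. It was 0.58 without XKA replicate 1 (adjusted p = 0.0208), 0.58 without model replicate 3 and XKA replicate 1 (adjusted p = 0.0152) and 0.52 with array weights (adjusted p = 0.0259), and all of these passed. It did not pass in the other alternatives, among them the values as deposited and quantile normalization. With the values as deposited, the change between XKA and C57BL/6J mice was lower for every gene (median over all genes -0.06 instead of 0.10). Between XKA and model mice the log2 change of Cyp4v3 was -0.24 (95% interval -0.58 to 0.10, limma adjusted p = 0.73), and -0.23 on the second probe set (adjusted p = 0.73).

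**Figure D2:**
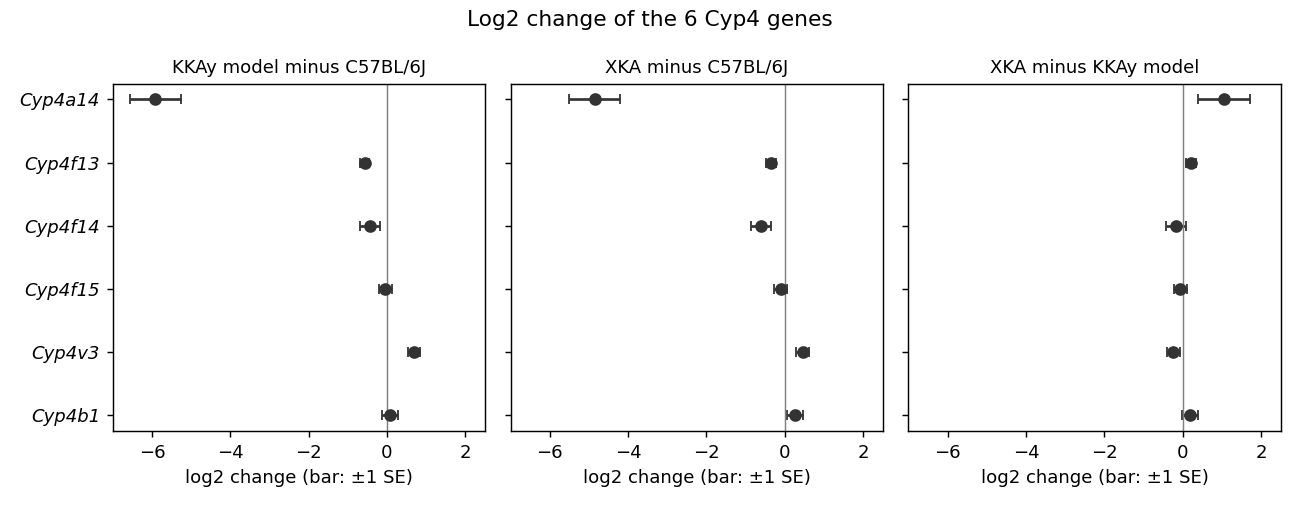
Log2 change of the 6 Cyp4 genes in the 3 comparisons (points, with bars of 1 SE from the limma fit on 15 arrays). Cyp4a14 stood at -5.91 and -4.85 against C57BL/6J mice, the other 5 genes lay between -0.60 and 0.69, and in the XKA minus model panel no gene passed the test.

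Between the model and C57BL/6J groups the members were not tested, because the result of this comparison was known when they were chosen. At the threshold used for all genes 12.8% of all genes passed there, 10.5% higher and 2.36% lower. Groups did not overlap for 3 members, Cyp4a14, Cyp4f13 and Cyp4v3, and for 10.5% of all genes, and nothing is read from that count. The median log2 change of the 6 members was -0.24, beside 0.15 over all genes. Between the XKA and C57BL/6J groups, which share the C57BL/6J arrays with the comparison that chose Cyp4a14, 0 of the other 5 members passed, against 7.37% of all genes (5.49% higher and 1.88% lower), and none of the 5 had groups that did not overlap, against 6.95% of all genes.

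The reverse rate of the study's methods divides the model minus XKA difference of mean signals by the model minus C57BL/6J difference, so that 1 means that XKA mice had the C57BL/6J mean and 0 that they had the model mean. It was 0.0437 for Cyp4a14, 0.325 for Cyp4f13 and 0.386 for Cyp4v3. With each array left out in turn it ranged from 0.0123 (without XKA replicate 3) to 0.0587 (without XKA replicate 1) for Cyp4a14, from 0.284 to 0.386 for Cyp4f13, and from 0.216 (without XKA replicate 1) to 0.472 for Cyp4v3. For Cyp4f14 it was -0.33 and ranged from -1.17 to 0.0281, and for Cyp4b1 and Cyp4f15, whose model and C57BL/6J means nearly coincide, the ratio has no stable value.

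In the RefSeq annotation of the mouse assembly GRCm38.p6, Cyp4a14 and Cyp4b1 belong to 1 gene cluster on chromosome 4, in which Cyp4a14 is followed by Cyp4a10, Cyp4a31, Cyp4a32 and Cyp4b1 and is preceded by Cyp4a12a, Cyp4a12b and Cyp4a30b. Cyp4f13, Cyp4f14 and Cyp4f15 lie together on chromosome 17, and Cyp4v3 lies on chromosome 8. Of 13 further Cyp4 genes, 6 had a probe set of their own and 4 of these had a mean above the array median. Between model and C57BL/6J mice 1 of the 6 was higher, 1 was lower and 4 did not pass, and the result was the same between XKA and C57BL/6J mice.

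The lower gene was Cyp4a31, a close neighbour of Cyp4a14 and a near-identical copy of Cyp4a10 and Cyp4a32, so that its probe sets may also read those genes. Its scaled signal was 19225, 37614, 25538, 34660 and 25126 in C57BL/6J livers. In model mice it was 8916, 6227, 2430, 2870 and 3851, and in XKA mice 4037, 6887, 9547, 7805 and 4895. All 10 KKAy arrays were below every C57BL/6J array, with a log2 change of -2.68 in model mice (SE 0.31, limma adjusted p = 5.96e-06) and -2.13 in XKA mice (SE 0.31, adjusted p = 0.000126), and its second probe set went the same way (-3.13 and -2.39). Between XKA and model mice it did not pass (0.55, 95% interval -0.09 to 1.19, adjusted p = 0.66).

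The higher gene was Cyp4a12a, an arachidonic acid hydroxylase that is expressed far more in male than in female liver. Its scaled signal was 62485, 99332, 67497, 115611 and 114500 in C57BL/6J livers. In model mice it was 280140, 229590, 187373, 260422 and 174432, and in XKA mice 162416, 231456, 184576, 194789 and 171472. All 10 KKAy arrays were above every C57BL/6J array, with a log2 change of 1.33 in model mice (SE 0.19, limma adjusted p = 7.51e-05) and 1.08 in XKA mice (SE 0.19, adjusted p = 0.000929). Genes of the same cluster thus stood on opposite sides of their C57BL/6J level, Cyp4a31 lower and Cyp4a12a higher, and neither direction nor call changed with the values as deposited or after quantile normalization. In a list of male-biased liver genes, 9 were measured. Of these 3 were higher in model mice than in C57BL/6J mice, against 10.5% of all genes, and 0 were lower. Between XKA and model mice 1 passed, against 0.176% of all genes. It was Elovl3, which was lower in XKA mice (-1.52, SE 0.19, limma adjusted p = 0.0015), with groups that did not overlap.

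**Figure D3:**
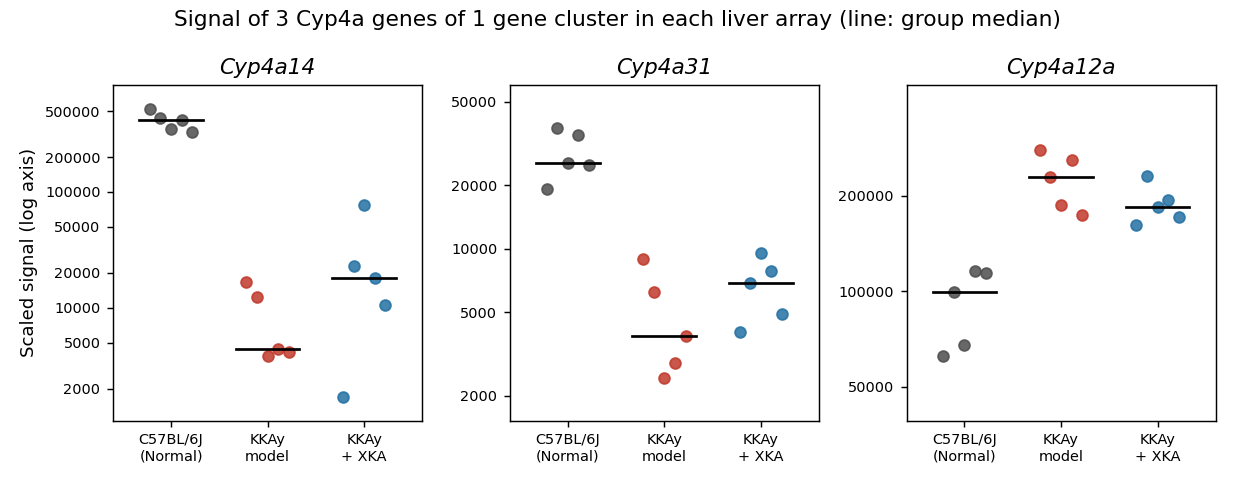
Scaled signal (log axis) of 3 genes of the Cyp4a cluster in each array, with lines at group medians. All 10 KKAy arrays were below every C57BL/6J array for Cyp4a14 and Cyp4a31 and above every C57BL/6J array for Cyp4a12a.

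Cyp4a14 was set beside other genes that PPARA is known to induce, in a list of 45 genes of which 41 were measured. Between model and C57BL/6J mice, where 10.5% of all genes were higher and 2.36% lower, the median log2 change of the list was 0.16, beside 0.15 over all genes. Of the 41 genes 9 were higher, 4 were lower and 28 did not pass. Those higher included Cd36, the fatty acid uptake receptor (2.24, SE 0.19, limma adjusted p = 1.93e-07), Fgf21, a hormone of fasting (1.80, SE 0.38, adjusted p = 0.0035), and Acadm, a dehydrogenase of mitochondrial beta-oxidation (0.58, adjusted p = 0.0132). Those lower included Decr2, a peroxisomal reductase for unsaturated fatty acids (-0.83, adjusted p = 0.0045), and Aldh3a2. Classical targets such as Ehhadh of peroxisomal beta-oxidation (-0.39, adjusted p = 0.57), the thioesterase Acot1 (-0.86, adjusted p = 0.28), Cpt1a, which admits fatty acids to mitochondria (-0.13, adjusted p = 0.64), Pdk4 (0.68, adjusted p = 0.088) and Vnn1 (0.34, adjusted p = 0.48) did not pass. Of these, Cpt1a passed after quantile normalization (-0.32, adjusted p = 0.0145) and stood at -0.33 with the values as deposited (adjusted p = 0.051).

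The counts of this list rested on single arrays and on the scaling. With the values as deposited 3 were higher and 4 lower, and after quantile normalization 6 were higher and 6 lower. The 9 became 4 without model replicate 2, model replicate 3 or C57BL/6J replicate 3, and 3 without model replicate 4, C57BL/6J replicate 4 or C57BL/6J replicate 5. The 4 became 2 without model replicate 1, model replicate 3 or C57BL/6J replicate 2. Without model replicate 3 and XKA replicate 1 together, 5 were higher and 3 lower. Between XKA and C57BL/6J mice 4 were higher and 2, Decr2 and Aldh3a2, were lower, with 1 to 4 higher and 1 or 2 lower when single arrays were left out. In that comparison 5.49% of all genes were higher and 1.88% lower. Between XKA and model mice none of the 41 passed, against 0.176% of all genes, and the median log2 change was -0.06, as over all genes. The lowest adjusted p was that of Acot3 (2.34, SE 0.52, limma adjusted p = 0.081), whose groups overlapped and which was named after the values were seen.

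**Figure D4:**
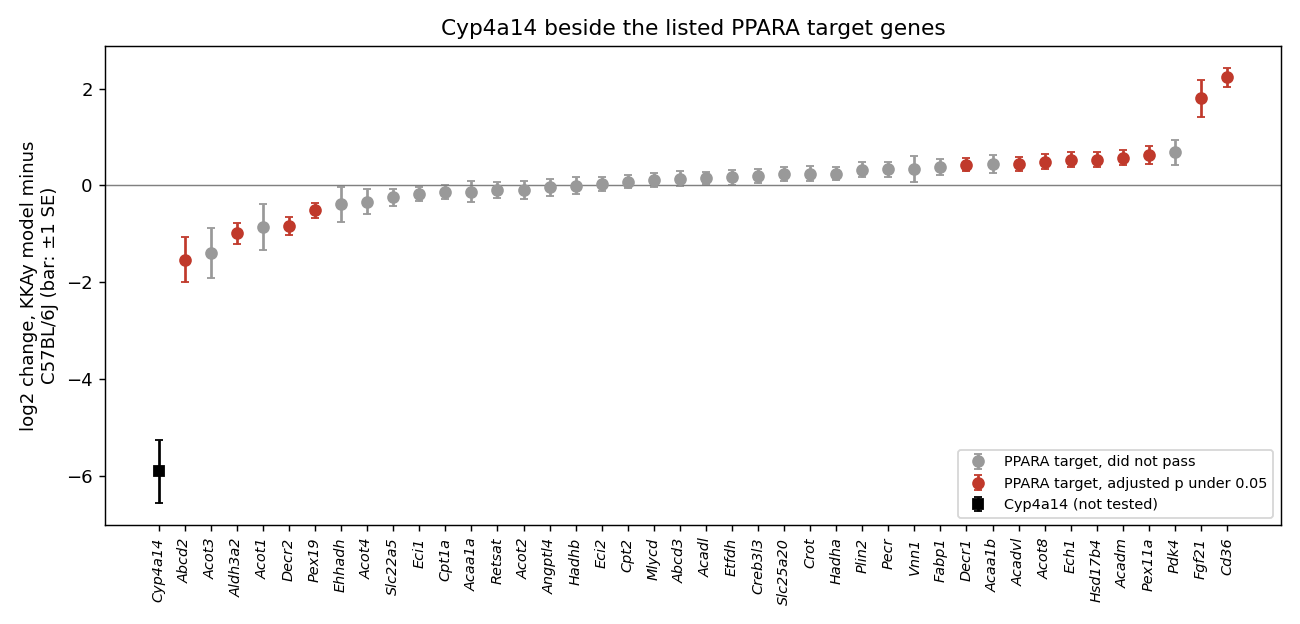
Log2 change between KKAy model and C57BL/6J mice for Cyp4a14 (black square, no test) and the 41 measured PPARA target genes in order of change (circles, red where the limma adjusted p was under 0.05), with bars of 1 SE. Of the 41 targets, 9 were higher, 4 lower and 28 did not pass, where 10.5% of all genes were higher and 2.36% lower. Cyp4a14 is shown at -5.91, the change it was selected for.

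Among 14 measured genes for PPARA, its partners and related receptors, Ppara itself was at 0.28 between model and C57BL/6J mice (limma adjusted p = 0.31). Between XKA and C57BL/6J mice it was higher (0.60, SE 0.16, adjusted p = 0.029), with means of 61560 ± 6652 and 41805 ± 10786 (SD, n = 5), and this did not pass with the values as deposited (adjusted p = 0.101) or when the probe sets of the gene were averaged (0.12, adjusted p = 0.79). Pparg, the related receptor of fat storage, was higher in model (1.81, SE 0.21, adjusted p = 6.39e-06) and XKA mice (1.70, SE 0.21, adjusted p = 1.86e-05). Lpin1, a phosphatidate phosphatase that also acts as a partner of PPARA, was lower in model (-2.31, SE 0.32, adjusted p = 5.60e-05) and XKA mice (-2.07, SE 0.32, adjusted p = 0.000271). In all, 2 were higher and 1 was lower in each comparison with C57BL/6J mice, and none of the 14 passed between XKA and model mice. Over all genes 10.5% were higher and 2.36% lower in model mice, and 5.49% and 1.88% in XKA mice, than in C57BL/6J mice. Between XKA and model mice 0.176% of all genes passed.

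Of the 11 alcohol and aldehyde dehydrogenases that act after omega-hydroxylation, 10 did not pass and 1 was lower in each comparison with C57BL/6J mice. Over all genes 10.5% were higher and 2.36% lower in model mice, and 5.49% and 1.88% in XKA mice. The lower dehydrogenase was Aldh3a2, the fatty aldehyde dehydrogenase, with means of 25299 ± 5297 in model, 20050 ± 6409 in XKA and 50224 ± 11532 in C57BL/6J mice (SD, n = 5). Its log2 change was -0.99 in model (SE 0.22, limma adjusted p = 0.0052) and -1.37 in XKA mice (SE 0.22, adjusted p = 0.000469). None of the 4 measured genes that supply electrons to P450 enzymes passed in any comparison. Of 9 measured genes of leukotriene and eicosanoid metabolism, 1 was higher in each comparison with C57BL/6J mice, Alox5ap, which hands arachidonic acid to 5-lipoxygenase, in model mice (0.86, adjusted p = 0.0242) and Alox5, 5-lipoxygenase itself, in XKA mice (1.45, adjusted p = 0.0284). These 2 genes were named after their values were seen, because each was the only one of its list to pass, and their groups overlapped for Alox5ap but not for Alox5, whose mean was under the array median in C57BL/6J mice. Neither passed with the values as deposited (adjusted p = 0.076 and 0.065), nor did Alox5ap without model replicate 3 and XKA replicate 1 (adjusted p = 0.0765).

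Some members also varied together with Cyp4a14 between mice, and the KKAy arrays, where Cyp4a14 spread most, weigh most in this. After the group mean was subtracted from each log2 signal, 4 of the other 5 members went with Cyp4a14 over the 15 arrays, at a Pearson r of 0.83 for Cyp4f15, 0.83 for Cyp4f14, 0.81 for Cyp4v3 and 0.63 for Cyp4b1, while Cyp4f13 did not (0.02). Among 11623 genes with a mean above the array median, whose median r was 0.20, these ranked 101, 117, 159, 1171 and 7897. XKA replicates 1 and 3 lay farthest out, and without them r was 0.67, 0.79, 0.82 and -0.26 for the first 4 members, so that the value of Cyp4b1 rested on these arrays. Cyp4a31 had an r of 0.74, and 0.80 without them. The 5 genes most like Cyp4a14 were Ephx2, the soluble epoxide hydrolase that opens epoxides of fatty acids (0.95, and 0.89 without those arrays), Gamt of creatine synthesis (0.92 and 0.85), Ndufb10 of respiratory complex I (0.91 and 0.81), Mcrip2 (0.91 and 0.69) and 2310061I04Rik (0.91 and 0.85). Of the 40 PPARA targets ranked, 21 had an r above 0.5 (52.5%, against 20.2% of all genes ranked), and their median r was 0.54. Without XKA replicates 1 and 3 the number was 15 (37.5%, against 11.9% of all genes ranked) and the median 0.44. These correlations describe deviations over arrays that share scaling and RNA, and genes are not independent replicates.

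Acute phase genes, which the liver raises in inflammation, were highest in arrays where some members were low. Of 19 listed, 12 were higher in model and 5 in XKA mice than in C57BL/6J mice, and the rest did not pass, with a median log2 change of 1.50 and 1.15. Over all genes 10.5% were higher in model and 5.49% in XKA mice, with a median of 0.15 and 0.10. The summed signal of the acute phase genes was 2910640 to 4387940 in C57BL/6J, 4879060 to 11164900 in model and 3576900 to 8558970 in XKA mice. The mean log2 signal of the list, relative to all KKAy arrays, was highest in model replicate 3 (1.22) and XKA replicate 1 (0.84) and was -1.01 to 0.45 in the other KKAy arrays. In those arrays Cyp4a14, Cyp4f14 and Cyp4v3 had the lowest signal of their group. The other KKAy arrays showed no such order for Cyp4a14. Model replicate 5 (-0.36) and XKA replicate 5 (-1.01), the lowest of their groups in acute phase signal, also had Cyp4a14 below its group mean, by -0.70 and -0.43 on the log2 scale, and model replicate 1 (0.16) had it above by 1.29. The summed signal of 7 neutrophil markers was 7632 to 12291 in C57BL/6J, 14752 to 32975 in model and 7830 to 26281 in XKA mice, with Camp and Ltf below the array median and S100a8 the only marker of the list that was higher in model mice (2.16, limma adjusted p = 0.00113). The part of either in the Cyp4 values was not tested. Without model replicate 3 and XKA replicate 1 the XKA minus model change was 1.62 for Cyp4a14 (limma adjusted p = 0.28), 0.26 for Cyp4f13 (adjusted p = 0.64), -0.17 for Cyp4f14 (adjusted p = 0.91) and -0.19 for Cyp4v3 (adjusted p = 0.83), and again no member passed.

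**Figure D5:**
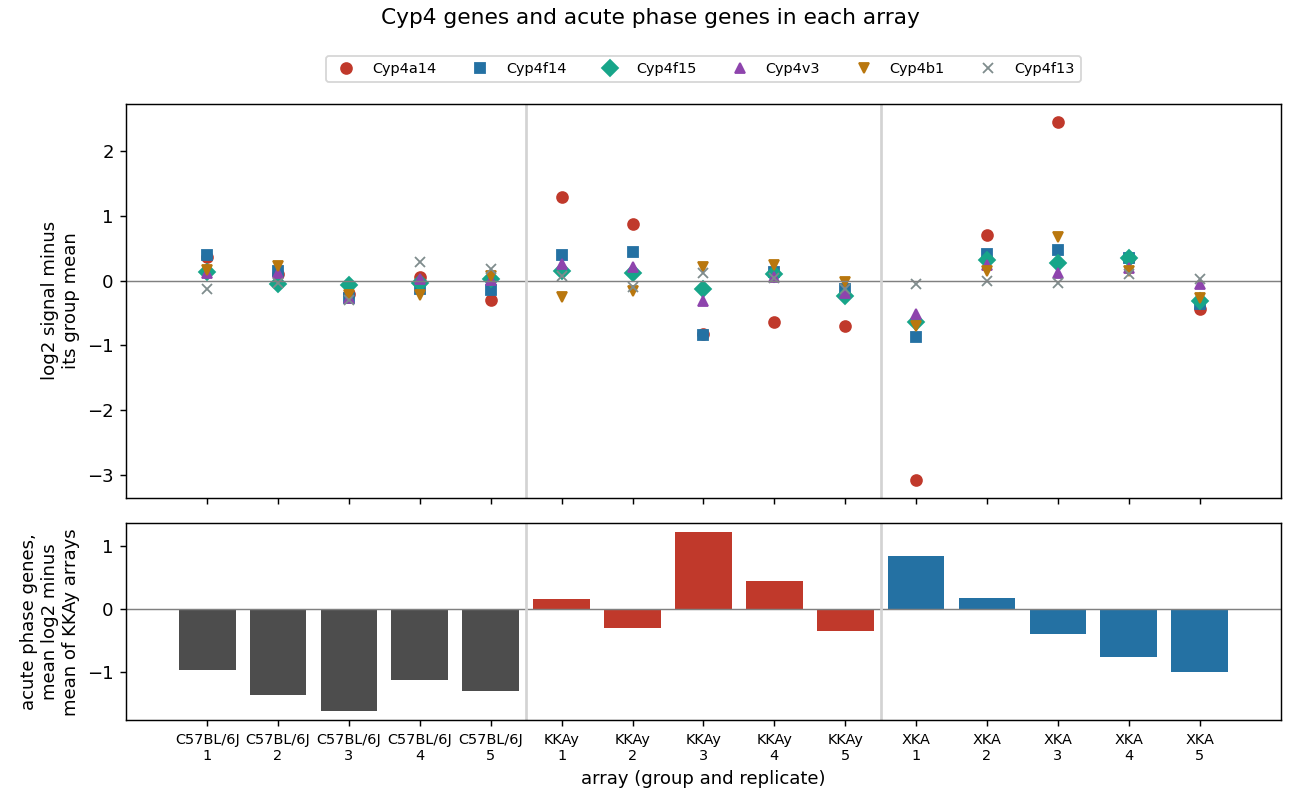
Upper panel, log2 signal of the 6 Cyp4 genes minus the mean of the group, for each of 15 arrays. Lower panel, mean log2 signal of 19 acute phase genes minus its mean over the 10 KKAy arrays, coloured by group (grey C57BL/6J, red KKAy model, blue XKA). In model replicate 3 (1.22) and XKA replicate 1 (0.84) the acute phase genes were highest and Cyp4a14, Cyp4f14 and Cyp4v3 were lowest within their group.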

How the data were processed

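The authors deposited linear intensity values of 45101 probe sets, 1 column for each of 15 arrays. The summary of probes behind them is not given in the sources used. The methods name a median scaling to 1000 in ArrayTrack 3.5.0, but the deposited array medians were 127 to 182, so each array was scaled to 1000 here. Of the probe sets 34958 carried 1 symbol and 932 several. For 18193 genes, the probe set of highest mean log2 signal stood for the gene. All arrays entered 1 fit in limma 3.58.1 (R 4.3.3) with an intensity trend, two-sided, with Benjamini-Hochberg adjustment over all genes at 0.05, and a second fit took all probe sets. The fit was tested on simulated data with 200 changed genes. Members and gene lists were chosen with earlier results of these data known. By rule the members, other Cyp4 genes, Ppara and its best known targets, up to 4 genes per list with groups that did not overlap, and the 5 genes most like Cyp4a14 were named. The same likeness was planned for Cyp4a10, which had no value. Single members were also compared by exact permutation (scipy 1.17.1), and the Dunnett comparisons that the methods name were run with mvtnorm 1.3.3. Other tools were the data.table package (version 1.17.8), Python 3.11.15, pandas 2.3.3 and matplotlib 3.10.9. Alternatives covered scaling, probe sets, dim genes, trend, a replicate block, array weights and the removal of each array. The counts of the PPARA list and the values of Cyp4a31 and Cyp4a12a under these alternatives were added after the data were seen.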

Additional observations from a re-analysis of the deposited data

Results flagged for a closer look

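Within the C57BL/6J group, replicate 3 stood apart for Cyp4v3 at a scaled signal of 138482, where the other 4 mice had 168067 to 181710. On the log2 scale, on which the test was run, the gap to the nearest mouse was 0.713 of the whole range, just above Dixon's 95% value of 0.71 for 5 samples. On the scaled signal itself it was 0.684 and did not pass, whereas Cyp4a14 in the XKA group, with replicate 3 at the top, had 0.716 there and 0.478 on the log2 scale. Of 18 combinations of member and group, 1 passed on each scale, and chance gives about 1 in 20.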

How the results depend on the processing

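No member passed between XKA and model mice in any alternative, and the direction of Cyp4a14 against C57BL/6J mice was the same in all, with log2 changes of -6.23 to -5.70 in model and -5.46 to -4.09 in XKA mice. Genes that passed between XKA and model mice numbered 32, and 63 with the values as deposited, 113 after quantile normalization, 6 with probe sets averaged, 4 without the intensity trend, 57 with array weights, 944 by Dunnett comparisons unadjusted over genes, 0 by the same adjusted over genes, and 11 to 61 with each array left out. Between model and C57BL/6J mice 2336 passed (1906 higher, 430 lower), and 3547 and 1359 by Dunnett comparisons without and with that adjustment. The split was 1118 higher and 1017 lower with the values as deposited and 1578 and 1098 after quantile normalization, where all genes had a median log2 change of -0.04 and 0.04 instead of 0.15. Between XKA and C57BL/6J mice 1341 passed (999 higher, 342 lower), 828 with probe sets averaged and 881 without the trend, with a split of 697 higher and 768 lower as deposited and 1014 and 793 after quantile normalization. For Cyp4f13 the model minus C57BL/6J change was -0.57, and -0.76 as deposited and -0.75 after quantile normalization.

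Reversed signs were all of small changes that did not pass. They were Cyp4b1 between model and C57BL/6J mice (-0.12 as deposited, -0.063 after quantile normalization), Cyp4f14 between XKA and model mice with each array left out (-0.38 to 0.045, the latter without XKA replicate 1), and Cyp4f15. For Cyp4f15 the XKA minus model change was 0.015 with array weights, -0.15 to 0.097 with each array left out (positive without XKA replicate 1 or 5) and 0.063 without model replicate 3 and XKA replicate 1. Its model minus C57BL/6J change was -0.082 to 0.015 with each array left out (positive without model replicate 5). Its XKA minus C57BL/6J change was 0.012 with array weights, -0.19 to 0.052 with each array left out (positive without XKA replicate 1) and 0.052 without model replicate 3 and XKA replicate 1. The cause was not tested.

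Mice with the same replicate number did not deviate together (correlations -0.04 to 0.09 over all genes). With the number as a replicate block 22, 2082 and 1170 genes passed in the XKA minus model, model minus C57BL/6J and XKA minus C57BL/6J comparisons. Over all genes, the SE of a log2 change had a median of 0.28 with 5 mice in a group.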
